A study of Schmidtea mediterranea with 9 samples.

Results

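The transcripts described here were at a similar level in testis and in non-gonadal tissue of the sexual planarian *Schmidtea mediterranea* and lower in ovary. They were chosen by their measured values. From the deposited CPM values (counts scaled by library size and a composition factor described below), averaged over the 3 libraries of each tissue, a transcript was kept where non-gonadal tissue had at least 2 CPM, testis lay within 1.5-fold of non-gonadal tissue in either direction, and ovary was at most 1/2.2 of non-gonadal tissue. Of 36036 transcripts, 13750 reached the minimum level, 3050 of these had testis within 1.5-fold, and 128 of those met the ovary limit. These 128 are the members, and 128 of 128 also passed the filter for testing, with or without the ovary libraries. The low level in ovary and the like levels in testis and non-gonadal tissue are the choice itself, so the values below describe the members and are no test of that pattern.

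Areas were excised with a laser from stained sections of acetone-fixed wild type worms of the Sexual strain (laser-capture microdissection), and 3 libraries each were sequenced from ovary, testis and non-gonadal tissue, the last taken from around the gonads. Each ovary library pooled captures from 14 worms, and each testis or non-gonadal library pooled captures from 6 worms. No source used here states that the libraries of a tissue came from separate sets of worms, so the spread between them may be technical in part.

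This planarian is a simultaneous hermaphrodite, with ventral ovaries behind the brain and many dorsolateral testes in the same body. The ovary holds oogonia and oocytes with somatic support cells, and the testis lobes hold the stages of spermatogenesis up to flagellated sperm. Non-gonadal tissue of the flatworm is a mixture of other cell types, which can include muscle, gut, nerve, epidermis and the pluripotent stem cells called neoblasts. In tissue captured in bulk, fewer cells of a type and less RNA per cell cannot be told apart. The tables used here, which hold the annotation only in part, pair none of the 128 identifiers with a gene name, so no role is given to a member, and the members are named by their transcript identifiers.

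Total counts ranged from 20629642 to 25730833 in ovary, from 22157475 to 25537267 in testis and from 18611584 to 21654320 in non-gonadal libraries. The gonad labels were checked on TPM, each transcript's share of reads after adjustment for its length. The summed TPM of 6 testis markers, *sped-1*, *C3H-zfn-1*, *elav2*, *bic-c*, *nf-yb* and *eIF3c*, was 112 to 165 in ovary, 10606 to 11638 in testis and 31.7 to 60.6 in non-gonadal libraries. The summed TPM of 4 ovary markers, *zfs1*, *lecg*, a CGH-1 match and *aadc*, was 4555 to 5125 in ovary, 136 to 146 in testis and 20.5 to 58.7 in non-gonadal libraries. Most of the ovary sum came from *lecg* (mean 2917 TPM) and the CGH-1 match (1753 TPM). The paper found *zfs1* through its ovary transcriptome, describes *lecg* in its search for ovary-enriched transcripts and reports *aadc* as enriched there. The part of the check that rests on these markers, *lecg* above all, is not independent. Among the ovary markers *zfs1*, a marker of female germ cells, was at 0 in testis libraries 1 and 3, and no other marker was at 0 anywhere. No marker of a non-gonadal cell type was paired with an identifier, so the label of the non-gonadal libraries could not be checked, and the part that body cells captured with a gonad have in the members' levels was not tested. Of the 13750 transcripts with at least 2 CPM in non-gonadal tissue, 619 had ovary and 1734 had testis under 10% of the non-gonadal level.

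The scale on which tissues are compared bears on every member. The deposited CPM do not sum to the same total in each library. They carry a composition factor, which multiplies the library size and lay between 1.35 and 1.38 in ovary, between 0.632 and 0.756 in testis and between 1.02 and 1.05 in non-gonadal libraries. CPM from library totals alone, called plain CPM below, therefore stand higher in ovary and lower in testis than the deposited values, relative to non-gonadal tissue. Over all 13750 transcripts at the minimum level, the median ovary level was 90.1% of the non-gonadal level in deposited CPM and 119% in plain CPM. The median testis level over the same transcripts was 68.7% in deposited CPM and 46.4% in plain CPM. Values are in deposited CPM unless another scale is named.

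In deposited CPM, low ovary levels were uncommon where testis and non-gonadal tissue were alike. The shares below relate 2 ratios that hold the same non-gonadal mean, so they are not independent of the choice. Differences between these shares were not tested, and they were not taken on other scales. The ovary limit was met by 128 of the 3050 transcripts with testis within 1.5-fold of non-gonadal tissue (4.2%), and by 183 of the 3954 transcripts with testis above that range (4.63%). Where testis lay below that range, 2459 of 6746 transcripts met it (36.5%). With the gonads exchanged, so that ovary lay within 1.5-fold of non-gonadal tissue and testis was at most 1/2.2 of it, the rule took 1629 of 5661 transcripts (28.8%). Among the same 3050 transcripts, ovary was also within 1.5-fold of non-gonadal tissue for 1685 (55.2%) and at least 2.2 times higher for 469 (15.4%).

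**Figure D1:**
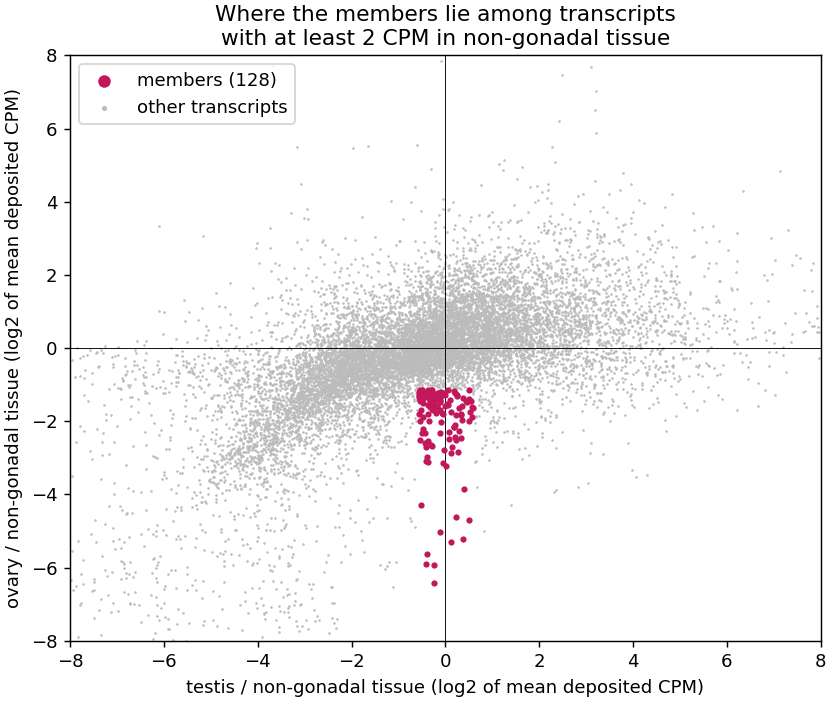
Mean deposited CPM in testis over non-gonadal tissue (horizontal axis, log2) and in ovary over non-gonadal tissue (vertical axis, log2), 1 point per transcript for 13485 of the 13750 transcripts with at least 2 CPM in non-gonadal tissue; the other 265 were at 0 in a gonad or beyond the axes. The 128 members fill the block that the rule marks out below the main cloud, and the 11 lowest have ovary under 10% of non-gonadal tissue.

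Relative to non-gonadal tissue, the members' ovary level had a median of 32.8% and ranged from 1.17% to 45.4%. It was under 5% for 9 members, 5 to 10% for 2, 10 to 20% for 21, 20 to 30% for 23, 30 to 40% for 44 and above 40% for 29. No member lay between 6.96% and 10.7%, with 11 members below this gap and 117 above it. The ovary values of the 11 rest on few counts, and whether the gap sets them apart was not tested. Relative to testis, the ovary level had a median of 33.5% and ranged from 1.39% to 65.8%. The testis level itself had a median of 88.6% of the non-gonadal level, with 84 members below and 44 above non-gonadal tissue. Members thus lay below non-gonadal tissue in testis in 65.6% of cases, against 51.6% of the 3050 transcripts from which they were taken. The ovary and testis ratios share the non-gonadal mean that the rule used. This difference is therefore not independent of the choice, and it was not tested.

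Per length, the members' median level in non-gonadal tissue was 10.7 TPM, against 12.4 TPM over the 3050 transcripts with testis within 1.5-fold and 5.87 TPM over all transcripts tested. In reads, non-gonadal CPM ranged from 2.12 to 256.9 with a median of 12.2, and 10 members had over 100 CPM, 60 had 10 to 100 and 58 had under 10. The 3050 transcripts had a median of 21.3 CPM there. The median biological coefficient of variation that edgeR estimated between libraries of a tissue was 0.132 over the members, against 0.101 over these 3050 transcripts and 0.120 over all transcripts tested. Members were 209 to 19186 nt long with a median of 1302 nt, against a median of 1360 nt over all transcripts tested. Of the 128 members, 16 were shorter than 500 nt and 15 longer than 3000 nt, while 8.79% and 11.8% of all transcripts tested were that short and that long.

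Summed over the 128 members, expression was lowest in the ovary libraries on both scales and lay closer between testis and non-gonadal tissue in deposited CPM than in TPM. The members summed to 1325, 1292 and 1217 CPM in the ovary libraries, to 3795, 4169.6 and 3779.5 CPM in the testis libraries, and to 4057, 3902 and 4164.5 CPM in the non-gonadal libraries. The testis and non-gonadal sums overlapped. In TPM they summed to 1889.9, 1779.9 and 1782 in ovary, to 2528, 2252 and 2365 in testis, and to 3588, 3425 and 3601 in non-gonadal libraries. Here the testis libraries stood between the other tissues and overlapped with neither. SMED30034546 and SMED30035348, described below, gave much of these TPM sums. They averaged 437 and 262 TPM in ovary, 383 and 240 TPM in testis, and 639 and 405 TPM in non-gonadal tissue.

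**Figure D2:**
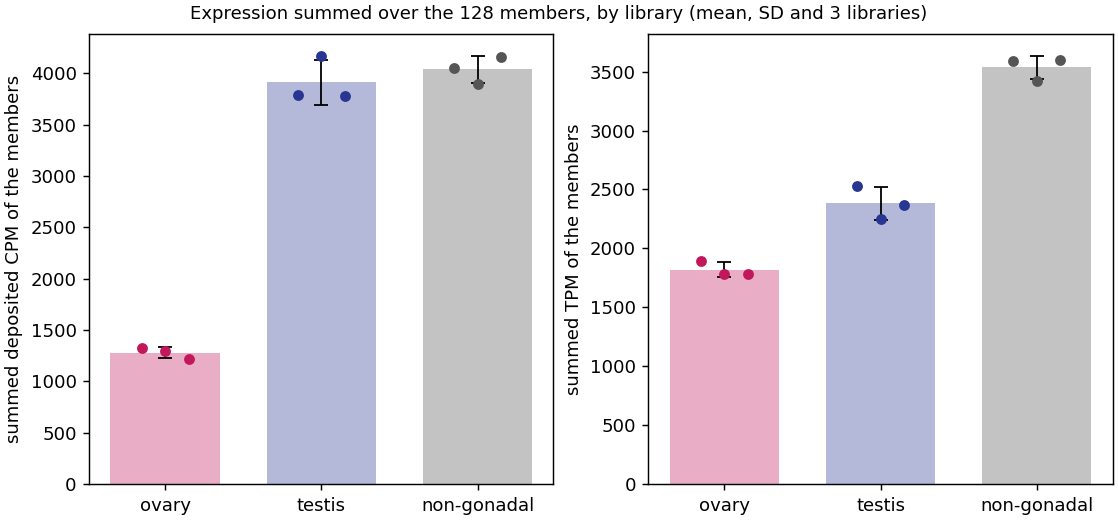
Expression summed over the 128 members in each library, in deposited CPM (left panel, vertical axis) and in TPM (right panel, vertical axis), for ovary, testis and non-gonadal tissue. Bars are means, whiskers SD and points the 3 libraries; the testis bar is near the non-gonadal bar in deposited CPM, and in TPM all testis libraries lie between 2252 and 2528, below every non-gonadal library.

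In each of the 10 members with most CPM in non-gonadal tissue, all 3 ovary libraries lay below all testis and all non-gonadal libraries. SMED30003448, a transcript of 1103 nt, had 73.1, 68.7 and 51.7 CPM in ovary, 343, 412 and 342 CPM in testis, and 284, 223 and 263 CPM in non-gonadal libraries. Its testis libraries were all above its non-gonadal ones, and its ovary mean was 25.1% of the non-gonadal mean. SMED30030007, at 6612 nt among the longest members, showed the same order, with 47.0, 60.2 and 55.2 CPM in ovary, 182, 229 and 194 CPM in testis, and 137, 151 and 139 CPM in non-gonadal libraries.

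The ratio of testis to non-gonadal tissue was below 1 for the other 8. SMED30030491 had the lowest ovary share among the 10, at 11.7% of non-gonadal tissue, with 22.5, 21.99 and 16.8 CPM in ovary, 167, 116 and 112 CPM in testis, and 183, 158 and 185 CPM in non-gonadal libraries. Its testis library 1 stood above the other 2 and overlapped with the non-gonadal range. SMED30031500 had 52.5, 58.5 and 45.3 CPM in ovary, 159, 195 and 154 CPM in testis, and 177, 180.2 and 178 CPM in non-gonadal libraries, so that the testis libraries spanned the non-gonadal ones. SMED30033568 likewise overlapped between testis and non-gonadal tissue, with 31.7, 35.3 and 29.0 CPM in ovary, 111, 103 and 109 CPM in testis, and 117, 99.9 and 117 CPM in non-gonadal libraries.

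SMED30011545 had 45.0, 54.3 and 49.996 CPM in ovary, 105, 134 and 108 CPM in testis, and 126, 119 and 123 CPM in non-gonadal libraries. One testis library was above the non-gonadal range and the other 2 below it. SMED30027968 had 53.4, 51.0 and 42.2 CPM in ovary, 88.9, 116 and 92.4 CPM in testis, and 142, 129 and 145 CPM in non-gonadal libraries. SMED30012889 had 55.0, 50.8 and 44.5 CPM in ovary, 83.8, 82.3 and 79.9 CPM in testis, and 118, 111 and 115 CPM in non-gonadal libraries. In these last 2 members the 3 tissues did not overlap, and testis stood between ovary and non-gonadal tissue, at 71.6% and 71.5% of the non-gonadal mean.

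SMED30034546 and SMED30035348 are short, at 357 and 526 nt, and had the highest levels of all members per length. SMED30034546 had 124, 85.8 and 121 CPM in ovary, 215, 173 and 210.2 CPM in testis, and 241, 241 and 253 CPM in non-gonadal libraries. SMED30035348 had 131, 72.7 and 89.6 CPM in ovary, 191, 174 and 189.7 CPM in testis, and 230.1, 216 and 239 CPM in non-gonadal libraries. Ovary was close to the limit in both, at 45.0% and 42.8% of the non-gonadal mean. In TPM, SMED30034546 averaged 437 ± 65.2 in ovary, 383 ± 68.7 in testis, and reached 639 ± 12.1 in non-gonadal tissue (SD, n = 3 libraries each), and SMED30035348 averaged 262 ± 66.1, 240.4 ± 28.1 and 405 ± 19.2 in the same order of tissues. On that scale the means of ovary and testis lay within about 1 SD of each other for both transcripts, and the ovary mean was the higher one.

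**Figure D3:**
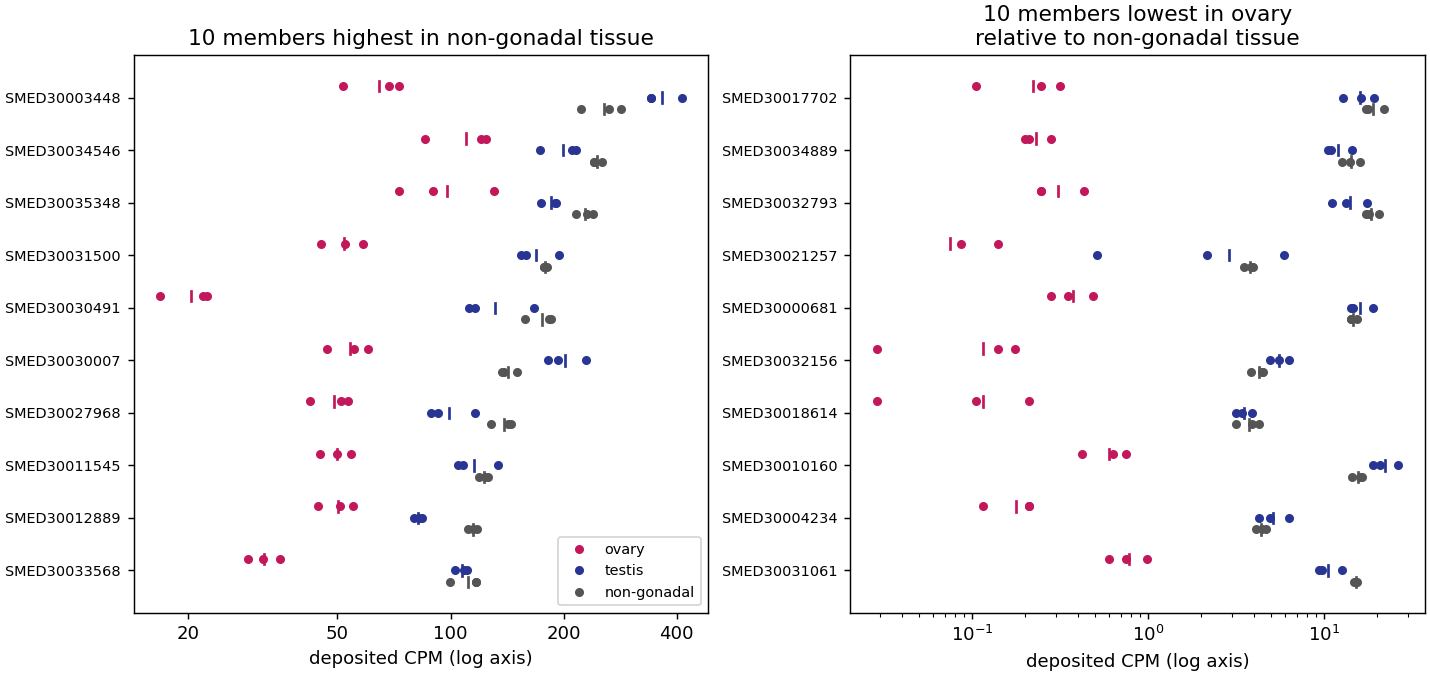
Deposited CPM (horizontal log axis) of the 10 members with most CPM in non-gonadal tissue (left panel) and of the 10 members with the lowest ratio of ovary to non-gonadal tissue (right panel), with ovary above testis above non-gonadal tissue for each transcript. Points are libraries and short vertical lines the means of 3; ovary library 1 of SMED30021257 is at 0 and is not drawn. The ovary points lie left of all others in each of the 20 transcripts, by little in SMED30034546 and by more than a factor of 10 in most of the right panel.

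The 11 members under 10% had 3.75 to 18.9 CPM in non-gonadal tissue, with a median of 7 counts per library in ovary. SMED30017702, of 699 nt, had the lowest ovary share of all members, with 0.246, 0.316 and 0.105 CPM in ovary, 19.1, 16.1 and 12.8 CPM in testis, and 17.6, 21.9 and 17.3 CPM in non-gonadal libraries. The ovary values stand for 7, 11 and 3 counts, and the mean was 85.1-fold lower than in non-gonadal tissue and 71.9-fold lower than in testis. SMED30034889, of 455 nt, had 0.211, 0.201 and 0.280 CPM in ovary, 10.9, 10.53 and 14.4 CPM in testis, and 12.6, 15.8 and 14.0 CPM in non-gonadal libraries. SMED30032793, of 1481 nt, had 0.246, 0.431 and 0.245 CPM in ovary, 17.6, 11.1 and 13.3 CPM in testis, and 17.8, 20.4 and 17.2 CPM in non-gonadal libraries. Their testis libraries overlapped with the non-gonadal ones in each of these 3 transcripts.

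The testis mean was above the non-gonadal mean in deposited CPM in SMED30018779, described further on, and in the next 4 transcripts. In plain CPM testis was below non-gonadal tissue, at 89.3% in SMED30018779, 72.6% in SMED30000681, 87.8% in SMED30032156 and 78.0% in SMED30004234. Counts given below are unscaled. SMED30000681 had 0.351, 0.488 and 0.280 CPM in ovary, 14.2, 18.8 and 14.6 CPM in testis, and 15.3, 14.2 and 14.2 CPM in non-gonadal libraries. SMED30010160 had 0.422, 0.746 and 0.630 CPM in ovary, 18.9, 26.3 and 20.8 CPM in testis, and 14.3, 15.8 and 16.4 CPM in non-gonadal libraries, so that testis and non-gonadal tissue did not overlap. SMED30032156 had 5, 1 and 4 counts in the ovary libraries, 92, 101 and 86 counts in the testis libraries, and 75, 100 and 92 counts in the non-gonadal libraries. SMED30004234 had 6, 4 and 6 counts in the ovary libraries, 71, 101 and 86 counts in the testis libraries, and 80, 106 and 90 counts in the non-gonadal libraries. The ovary means of these 4 transcripts were 2.56%, 3.87%, 2.70% and 4.07% of their non-gonadal means in CPM.

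SMED30018614, a short transcript of 393 nt, had 3, 1 and 6 counts in ovary, 57, 63 and 55 counts in testis, and 76, 96 and 64 counts in non-gonadal libraries. SMED30031061 had 0.598, 0.746 and 0.980 CPM in ovary, 9.73, 12.6 and 9.28 CPM in testis, and 15.4, 15.1 and 14.7 CPM in non-gonadal libraries. Here testis was 70.0% of non-gonadal tissue, with no overlap. In SMED30021257 the likeness of testis and non-gonadal tissue was an average over unlike testis libraries. It had 0, 3 and 4 counts in ovary, 99, 35 and 9 counts in testis, and 69, 87 and 80 counts in non-gonadal libraries, and its testis library 3 stood at 0.512 CPM, against 3.52 to 3.91 CPM in non-gonadal tissue.

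The 3 members whose testis and non-gonadal means were closest were at low to moderate levels. SMED30012858, of 3457 nt, had 1.13, 1.72 and 1.02 CPM in ovary, 11.6, 11.3 and 13.4 CPM in testis, and 11.7, 11.99 and 12.5 CPM in non-gonadal libraries. Ovary was 10.7% of non-gonadal tissue and testis 100.4%. SMED30007047 had 1.30, 0.976 and 1.05 CPM in ovary, 2.69, 2.91 and 2.45 CPM in testis, and 2.96, 2.48 and 2.64 CPM in non-gonadal libraries. SMED30006754 had 1.62, 1.32 and 1.02 CPM in ovary, 3.28, 5.58 and 2.96 CPM in testis, and 3.21, 4.38 and 4.30 CPM in non-gonadal libraries. In all 3 the testis libraries overlapped with the non-gonadal ones and the ovary libraries lay below both.

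The spread between libraries of 1 tissue was taken only from tissues whose lowest library had at least 20 counts, so that tissues with few counts, such as ovary in SMED30017702 or testis in SMED30021257, do not enter it. Within that limit 127 members had at least 1 such tissue, and the largest fold from the lowest to the highest library had a median of 1.46 and was above 2 for 14. Within the same limit SMED30014286 varied most in ovary, 3.16-fold, with 2.21, 1.44 and 0.700 CPM in ovary, 2.81, 4.15 and 3.13 CPM in testis, and 2.80, 3.27 and 3.62 CPM in non-gonadal libraries. SMED30005324 varied most in non-gonadal tissue, 3.02-fold, with 0.808, 0.689 and 0.385 CPM in ovary, 2.81, 3.53 and 2.96 CPM in testis, and 2.04, 6.15 and 4.11 CPM in non-gonadal libraries. The ovary libraries of both were below all others. In the other 3 of the 5 largest spreads within that limit it was testis that varied.

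SMED30024521 had 6.82, 7.18 and 8.30 CPM in ovary, 9.32, 15.2 and 26.3 CPM in testis, and 23.1, 20.8 and 21.96 CPM in non-gonadal libraries. SMED30017321 had 1.76, 2.18 and 2.80 CPM in ovary, 7.17, 18.7 and 8.03 CPM in testis, and 8.26, 9.91 and 8.26 CPM in non-gonadal libraries. SMED30002346 had 0.844, 1.29 and 1.19 CPM in ovary, 1.19, 3.10 and 1.88 CPM in testis, and 2.65, 2.79 and 2.89 CPM in non-gonadal libraries. The testis libraries of SMED30024521 ran from near the ovary range to above the non-gonadal range, a single testis library stood high in SMED30017321, and testis library 1 of SMED30002346 lay within the ovary range. Testis library 2 was the highest of its tissue for 70 of the 128 members, against 48.7% of all transcripts tested.

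Transcripts lay close to each limit of the rule on both sides. Just inside the ovary limit were SMED30029190, SMED30000236 and SMED30000522, with ovary at 45.4%, 45.2% and 45.2% of non-gonadal tissue, and just outside were SMED30026195, SMED30002080 and SMED30010370 at 46.0%, 46.0% and 46.1%. At the upper testis limit SMED30032500, SMED30032051 and SMED30029485 had testis at 149.5%, 148% and 147% of non-gonadal tissue, while SMED30034196, SMED30026189 and SMED30021807 were left out at 150.2%, 151% and 153%. At the lower testis limit SMED30030306, SMED30001161 and SMED30029732 had testis at 67.3%, 67.5% and 67.6%, and SMED30031515, SMED30031912 and SMED30017200 were left out at 66.2%, 65.8% and 65.6%. SMED30005937, SMED30020885 and SMED30021594 were members at 2.12, 2.12 and 2.13 CPM in non-gonadal tissue, and SMED30009798, SMED30030944 and SMED30010595 were not, at 1.95, 1.88 and 1.82 CPM. Below the minimum level, 256 further transcripts met the other limits.

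Calls across all 18416 transcripts tested place the members against their background, and since they use the contrasts of the rule nothing is read from them. A transcript was called at a 2-fold change with an adjusted p (Benjamini-Hochberg) no higher than 0.01 in edgeR's quasi-likelihood test. As lower in ovary than outside the gonads, 126 of 128 members and 18.8% of all transcripts tested were called. As lower in ovary than in testis, 108 of 128 members and 30.4% of all transcripts tested were called. No member was called between testis and non-gonadal tissue, where the rule allows at most a 1.5-fold difference of the means, while 33.4% of all transcripts tested were called higher and 35.1% lower in testis. DESeq2 also called 0 members there, and 42 members had an unadjusted edgeR p under 0.05, as had 87.6% of all transcripts tested.

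By library, 127 of 128 members had all ovary libraries below all non-gonadal ones, as had 36.4% of all transcripts tested. All ovary libraries lay below all other libraries for 123 members and for 9.39% of all transcripts tested. Testis libraries all lay above the non-gonadal ones for 16 members (43.1% of all transcripts tested) and all below them for 32 (45.3% of all transcripts tested), and the 2 tissues overlapped for 80. The 95% interval of the log2 ratio of testis to non-gonadal tissue lay wholly within 2-fold for 116 members. The rule keeps these means within 1.5-fold, so that count largely restates the choice. It was not taken over all transcripts tested. The remaining 12 members include SMED30021257, SMED30005324 and SMED30002346, whose spread is given above.

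The 2 members not called between ovary and non-gonadal tissue were SMED30002349 and SMED30021594. SMED30002349 had 0.879, 1.579 and 1.505 CPM in ovary, 0.956, 3.72 and 2.45 CPM in testis, and 2.19, 3.23 and 3.77 CPM in non-gonadal libraries, where ovary lay below non-gonadal tissue and overlapped with testis. SMED30021594 had 28, 51 and 0 counts in ovary, 11, 22 and 42 counts in testis, and 0, 121 and 21 counts in non-gonadal libraries. Its ovary and non-gonadal libraries overlapped, and a library of each stood at 0, so that its place among the members rests on non-gonadal library 2.

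The pattern was also read in libraries left out of the selection, in deposited CPM throughout. The rule itself was set with earlier results of these data known, and the spread between libraries of a tissue may be technical in part. This reading is therefore no independent replication. The composition factor differed less within a tissue than between tissues, so this reading cannot check the scale. In testis libraries 1, 2 and 3 the factor was 0.756, 0.632 and 0.722, so the testis levels read below carry these differences. The rule was applied to 2 libraries of each tissue and the chosen transcripts were then read in the library of each tissue left out. With replicates 1, 2 and 3 left out in turn, 125, 144 and 128 transcripts were chosen, of which 104, 105 and 111 are members. In the libraries left out, ovary was below non-gonadal tissue for 124, 143 and 128 of them, and its median was 33.0%, 34.2% and 30.4% of the non-gonadal level, against 32.9%, 31.0% and 32.9% in the libraries used to choose them. The ovary limit was met in the libraries left out by 99, 111 and 114 of the chosen transcripts, and by 4.38%, 5.08% and 4.86% of all transcripts with testis within 1.5-fold of non-gonadal tissue in the libraries used.

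The testis limit was also read there. In the libraries left out, testis stayed within 1.5-fold of non-gonadal tissue for 92, 90 and 90 of the chosen transcripts (73.6%, 62.5% and 70.3%), against 80.3%, 79.0% and 86.7% of all transcripts chosen for that likeness alone. That difference was not tested. Counts were summarized only for the rule applied to all libraries, with a median of 255 counts per non-gonadal library over the 128 members, against 446 over the 3050 transcripts. All limits of the rule were met again by 76, 68 and 79 transcripts.

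Which transcripts belong to the set depended strongly on the scale. The same rule took 72 transcripts in plain CPM, 32 of them members, and 52 in TPM, 31 of them members. With TMM, edgeR's own composition scaling, 126 members stayed in a set of 131, and with DESeq2 size factors 120 in a set of 139. In plain CPM the members' median ovary level was 43.2% and their median testis level 59.9% of non-gonadal tissue, and 83 members fell below the testis limit. In TPM the medians were 50.5% in ovary and 64.9% in testis. Ovary was below non-gonadal tissue for 128 of 128 members on each of the 5 scales. The rule largely fixes that count, since it held ovary to at most 45.4% of non-gonadal tissue. Over all 13750 transcripts at the minimum level, the median ovary level moved from 90.1% in deposited CPM to 138% in TPM, where 75 members lay above the ovary limit. Ovary was below testis for 128 members in deposited CPM, TMM and DESeq2 scaling, for 108 in plain CPM and for 101 in TPM.

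**Figure D4:**
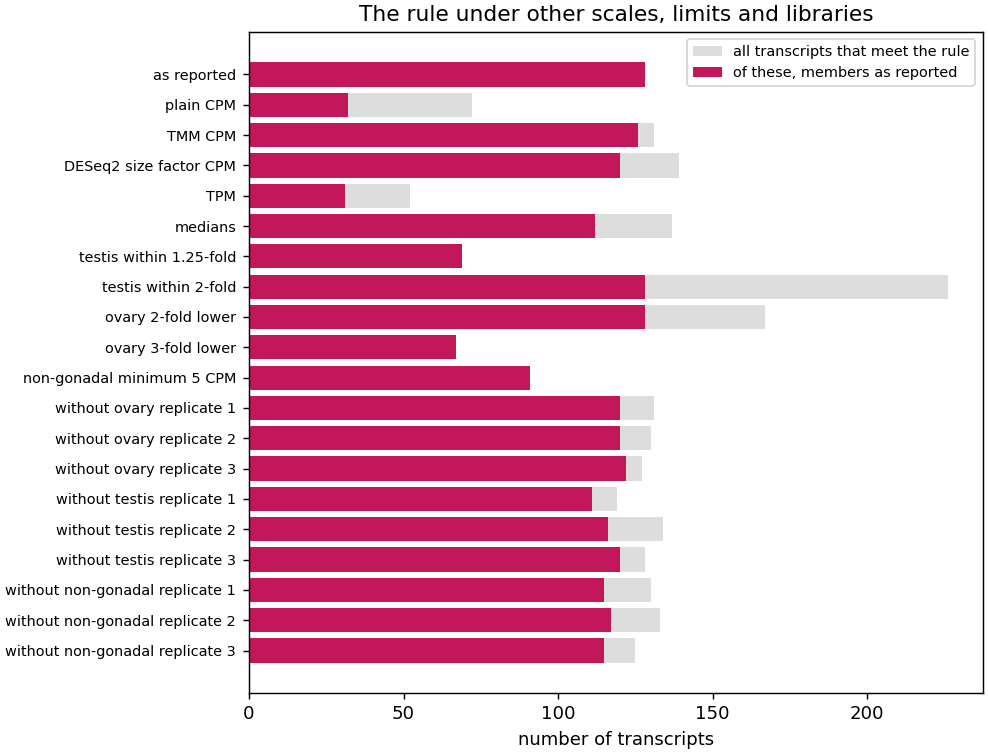
Number of transcripts (horizontal axis) that meet the rule as reported and under other scales, limits and sets of libraries (1 bar per setting). Grey bars are all transcripts that meet the rule and red bars the members among them; 32 members remain in plain CPM and 31 in TPM, and 111 to 122 when 1 library is left out, of which 78 remain whichever library it is.

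With 1 library left out in turn, 111 to 122 members met the rule, but only 78 of 128 did so whichever library was left out. On all 5 scales 21 members met the rule, and 19 of these also did so with each single library left out. Their ovary level was 2.56% to 28.5% of non-gonadal tissue in deposited CPM and 3.36% to 37.6% in plain CPM, and their testis level was 100.4% to 131% in deposited CPM and 68.0% to 89.3% in plain CPM. They include SMED30000681, SMED30032156 and SMED30004234 with ovary under 5%, SMED30012858 with testis next to the non-gonadal level, and SMED30017321 with its high testis library. The following 2 were chosen after their values were seen. SMED30035468, one of the longest members at 13546 nt, had 7.35, 8.44 and 9.42 CPM in ovary, 41.1, 44.2 and 41.7 CPM in testis, and 40.0, 36.9 and 35.2 CPM in non-gonadal libraries. SMED30018779, of 677 nt, had 9, 10 and 7 counts in ovary, 104, 74 and 91 counts in testis, and 86, 89 and 79 counts in non-gonadal libraries. Both had ovary libraries far below the others, at 22.5% and 6.96% of non-gonadal tissue in deposited CPM. Of the 11 members with ovary under 10%, 5 met the rule in plain CPM.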

How the data were processed

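The authors trimmed single-end reads from 9 libraries (3 tissues, 3 libraries each) and mapped these with CLC Genomics Workbench, using an assembled transcriptome to which *zfs1* was added. Its version, its settings and how it counted reads that match several transcripts were not given in the sources used here. They deposited the unnormalized count of reads per transcript, RPKM, TPM and a CPM signal that carries a composition factor, by a method that is not stated. The deposited fold changes and p-values of the authors' own comparisons were not used. There were 0 columns from other samples.

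The members and lists were chosen with earlier results of these data known. The rule was applied to deposited CPM. Transcript lengths were recovered from count and RPKM. Transcripts with at least 1 deposited CPM in at least 3 libraries were tested (18416, 51.1%) with edgeR 4.0.16 (quasi-likelihood, TMM, 1 model for 9 libraries; limma 3.58.1, R 4.3.3), and DESeq2 1.42.0 as an alternative. Calls needed a 2-fold change and an adjusted p (Benjamini-Hochberg) no higher than 0.01. The scripts were tested on simulated data. Differences between 2 libraries of a tissue exceeded counting noise for every pair (chi-square per transcript at least 11.9).

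Named members were the 10 with most CPM in non-gonadal tissue, the 10 lowest in ovary relative to it, the 3 with testis closest to it, the 3 transcripts on each side of each limit and the 5 with the largest fold between libraries of a tissue whose lowest library had at least 20 counts. Alternatives were other scales, limits, medians, normalizations, filters, the DESeq2 test, a replicate block and each library left out. Pathway lists could not be applied, since the tables used here pair no member with a name.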

Additional observations from a re-analysis of the deposited data

How the results depend on the processing

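Scaling mattered most. Of 128 members, 32 met the rule in plain CPM, 31 in TPM, 69 with testis at most 25% above or 20% below non-gonadal tissue, 67 with ovary at least 3-fold lower, and 111 to 122 with 1 library left out (78 whichever library was left out). Library size alone shifted the median log2 ratio of all transcripts tested by 0.42 (ovary against non-gonadal), -0.55 (testis against non-gonadal) and 0.96 (ovary against testis), and the share of calls that were higher was 68.9%, 39.3% and 69.8%, against 49.3%, 48.7% and 51.0% with TMM. It called 46 members lower in ovary than in testis (108 with TMM) and 22 different between testis and non-gonadal tissue, 22 of them lower (0 with TMM, 0 to 1 with 1 library left out, the 1 call coming without testis replicate 1). The median log2 ratio of ovary to non-gonadal tissue over the members was -1.62, -1.20 with library size alone and -1.67 to -1.61 with 1 library left out. That of testis to non-gonadal tissue was -0.19, -0.095 with DESeq2 size factors, -0.74 with library size alone and -0.23 to -0.14 with 1 library left out. For the 28 named members other than those named only for lying next to a limit, only ovary against non-gonadal tissue was followed. There 464 of 476 values kept their call, 12 lost it and 0 reversed. The rule chose members on this contrast, so the tally largely restates the choice and does not cover the other contrasts. Library size alone accounted for 8 of the 12. The other 4 were SMED30014286 in ovary against non-gonadal tissue, with a log2 ratio of -1.17 without ovary replicate 2, -0.89 without ovary replicate 3, -1.17 without non-gonadal replicate 2 and -1.09 without non-gonadal replicate 3. Same-numbered libraries did not all deviate together (r = -0.02 to 0.19 between ovary and non-gonadal tissue, against -0.24 to 0.11 for different numbers). Between testis and non-gonadal tissue r was 0.0161 to 0.0594 for the same number and -0.0433 to 0.0156 for different numbers. Between ovary and testis it was -0.002 to 0.074 and -0.050 to 0.028. These few values cannot decide whether the numbers pair the samples. With the replicate number as a block, 127 members were called lower in ovary than outside the gonads, 108 lower than in testis and 0 different between testis and non-gonadal tissue. Depth limits the 11 members with ovary under 10%, whose ovary values rest on a median of 7 counts per library.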
